A study of Mus musculus with 8 samples.

Results

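The 9 genes described here are markers of neuroendocrine cells: the granins Chga, Chgb and Scg2, their relatives Scg3 and Scg5, the vesicle protein gene Syp, the transcription factor genes Insm1 and Foxa2, and the adhesion molecule gene Ncam1. They were taken by symbol from the 24028 genes of the count tables, and all 9 were found. The data are bulk mRNA counts from 8 tumours of TRAMP-C2, an established mouse prostate adenocarcinoma line. The cells were injected into the dorsolateral prostate of male, immune-competent C57BL/6 mice, and the tumours were taken 30 to 45 days later. 4 tumours came from aged hosts (20 to 24 months old) and 4 from young hosts (4 months old), and each is named by its host group and replicate number. All 8 thus share the injected line, the site and the host strain, and the labels name no other allele or treatment. The line derives from a TRAMP mouse, in which a probasin promoter drives viral T antigens in prostate epithelium. The sequenced tumours came from 4 of 19 aged and 4 of 20 young hosts injected, and how they were picked is not stated. Transcripts of injected and of host cells were counted together.

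Neuroendocrine cells of the prostate store peptide hormones in dense core vesicles, whose matrix is built from granins. Insm1 and, in the prostate, Foxa2 encode transcription factors that mark the neuroendocrine state, and NCAM and synaptophysin are the surface and vesicle markers that pathologists stain for. Tumours of TRAMP mice can become neuroendocrine, and nerve cells, which also enter the prostate, share most of these markers. In bulk samples, fewer cells of a type and less RNA per cell cannot be told apart.

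The coordinates throughout are of GRCm38, the build of the deposited data. The promoter windows of the 5 granins and granin relatives are printed here because 3 of them, Scg2, Scg3 and Scg5, had their highest values in the same tumours while Chga and Chgb did not, as described below. For Chgb, Scg3 and Scg5 this split rests on few fragments. Chgb had 10 in aged 51 and 7 in young 40. Scg3 had 12 in aged 50 and 8 in aged 51, and Scg5 had 10 in young 40 and 7 in young 37. The 95% Poisson intervals for counting error overlapped in each pair. Each window runs from 250 bases before to 50 bases after the annotated start (RefSeq, GRCm38.p6, on the gene's strand). Capitals mark the core TGACG or CGTCA of the cAMP response element, to which CREB-type factors bind, or its full form TGACGTCA. The windows are chr12:102554691-102554990 (plus strand) for Chga, chr2:132781392-132781691 (plus) for Chgb, chr1:79439977-79440276 (minus) for Scg2, chr9:75684007-75684306 (minus) for Scg3 and chr2:113829042-113829341 (minus) for Scg5.
Chga promoter: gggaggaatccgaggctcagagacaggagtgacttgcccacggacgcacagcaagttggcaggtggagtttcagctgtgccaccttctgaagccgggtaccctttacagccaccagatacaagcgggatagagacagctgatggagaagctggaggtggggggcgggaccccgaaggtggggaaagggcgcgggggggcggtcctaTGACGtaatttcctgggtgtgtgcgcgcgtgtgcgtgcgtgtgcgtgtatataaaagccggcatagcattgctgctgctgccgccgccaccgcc
Chgb promoter: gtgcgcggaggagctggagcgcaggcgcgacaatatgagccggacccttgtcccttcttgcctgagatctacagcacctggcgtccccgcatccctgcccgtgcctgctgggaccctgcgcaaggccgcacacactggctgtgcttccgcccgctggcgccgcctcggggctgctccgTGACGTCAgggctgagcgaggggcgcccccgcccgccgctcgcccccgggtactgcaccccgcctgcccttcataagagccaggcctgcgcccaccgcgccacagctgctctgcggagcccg
Scg2 promoter: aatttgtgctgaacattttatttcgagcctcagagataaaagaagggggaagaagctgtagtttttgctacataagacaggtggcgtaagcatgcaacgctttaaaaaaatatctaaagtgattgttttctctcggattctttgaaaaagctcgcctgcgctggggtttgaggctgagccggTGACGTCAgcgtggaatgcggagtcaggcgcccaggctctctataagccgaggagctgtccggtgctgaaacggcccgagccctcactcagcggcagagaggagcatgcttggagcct
Scg3 promoter: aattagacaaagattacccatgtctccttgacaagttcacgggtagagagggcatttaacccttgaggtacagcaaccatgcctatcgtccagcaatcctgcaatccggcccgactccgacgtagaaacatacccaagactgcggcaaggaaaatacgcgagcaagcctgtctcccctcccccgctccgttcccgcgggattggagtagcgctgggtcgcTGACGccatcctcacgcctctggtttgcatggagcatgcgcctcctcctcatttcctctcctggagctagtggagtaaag
Scg5 promoter: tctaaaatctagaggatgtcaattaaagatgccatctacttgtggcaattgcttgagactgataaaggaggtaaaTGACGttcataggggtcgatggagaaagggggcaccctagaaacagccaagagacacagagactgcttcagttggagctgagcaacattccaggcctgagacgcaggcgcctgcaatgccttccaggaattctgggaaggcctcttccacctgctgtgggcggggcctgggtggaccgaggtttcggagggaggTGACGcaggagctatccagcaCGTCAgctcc

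All 5 windows held the core (TGACG on either strand), which 20.8% of all 32851 RefSeq promoter windows of this length hold. The full element TGACGTCA occurred 72 bases before the start of Chgb and 68 bases before that of Scg2, and in 1.79% of all windows. In Chga a core stood 44 bases before the start, and a TATA box (TATAAA, in 13.6% of windows on either strand) stood 5 bases after the annotated start. Scg3 had its core 30 bases before the start, and Scg5 had cores 175 bases before, 19 bases after and 40 bases after it. Among the other members Foxa2 had the core in 1 of its 3 windows, and the window of Syp did not hold these letters. The 2 parts of the site of REST, the repressor of neuronal genes, were searched as CAGCACC and GGACAGC on both strands. Scg2 held both, abutting each other with no base between them, on the strand opposite to the gene and from 14 bases before its start, an arrangement found in 2 of all 32851 windows. Chgb held the first part alone, 179 bases before its start. The parts with 2 bases between them were in 7 of all windows and in 0 of the members' windows.

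All 9 genes had at least 1 fragment in some tumour, but 4 of them never reached 1 CPM. On this scale (the count scaled to the library total), Ncam1 and Chga reached 1 CPM in every tumour, as did 12083 of all 24028 genes (50.3%). Scg2, Syp and Foxa2 reached it in some tumours. Chgb, Scg3, Scg5 and Insm1 stayed below 1 CPM in all 8. The libraries held 27054498 (young 37) to 35729488 (young 43) fragments, so 3 fragments, taken as the limit that a count of 0 allows, are 0.084 to 0.111 CPM. This limit and the Poisson intervals cover counting error only.

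**Figure D1:**
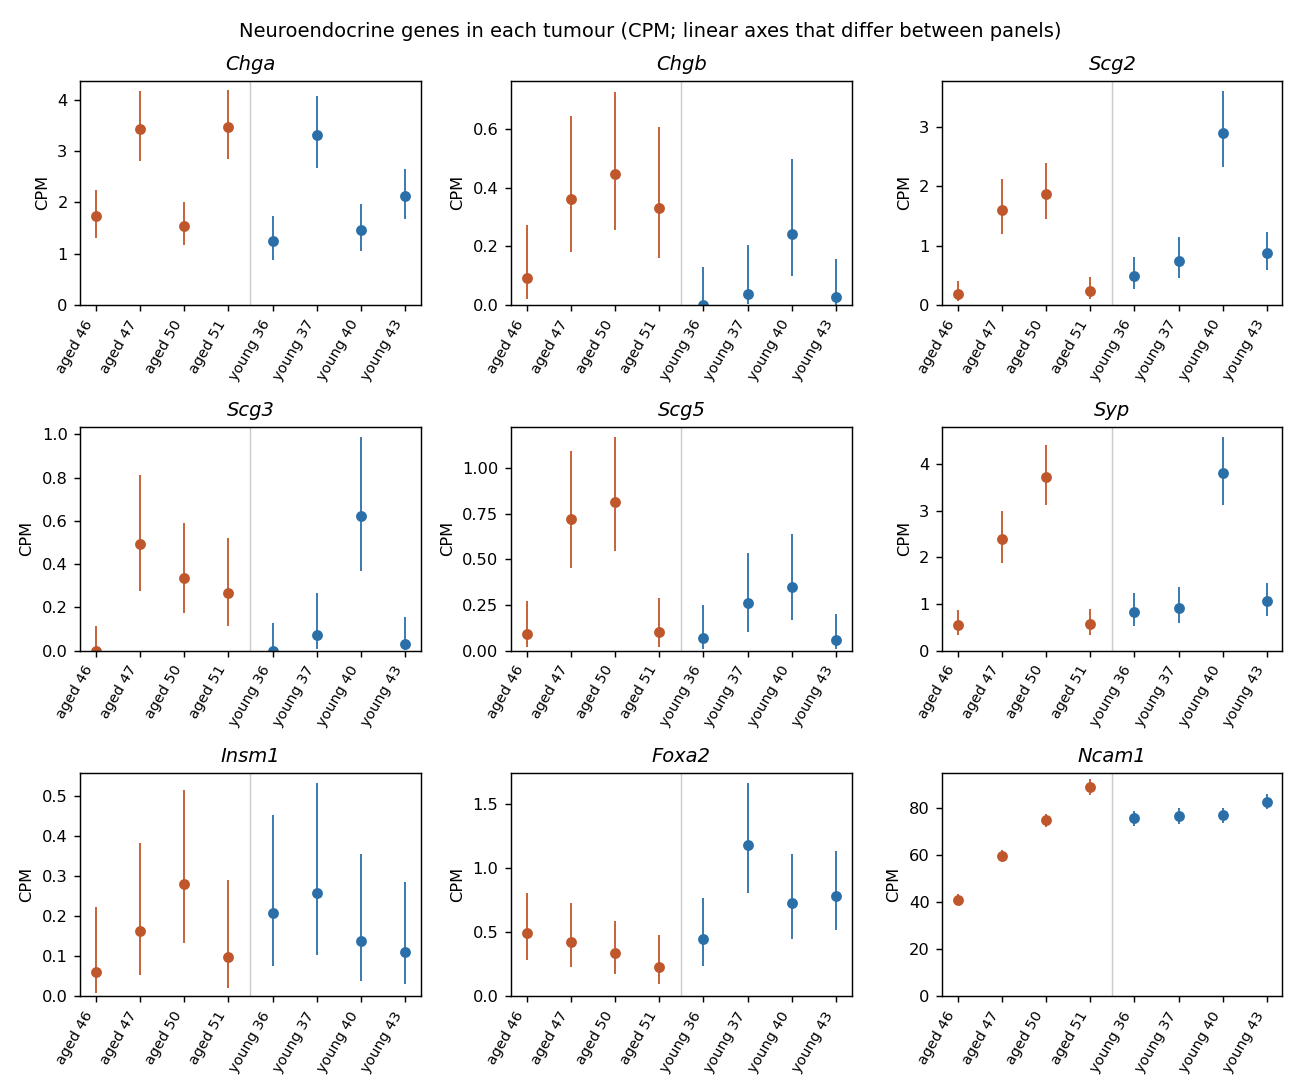
CPM of each gene (vertical linear axes, which differ between panels) in each of the 8 tumours, with exact 95% Poisson intervals for counting error and orange for aged, blue for young hosts. Ncam1 stands at 40.9 CPM or more in every tumour, while Chgb, Scg3, Scg5 and Insm1 stay below 1 CPM.

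Levels were compared between genes only per transcript length, as FPKM (CPM per kilobase of transcript). Ncam1 was the highest of the 9 in every tumour, with a median of 7.42 FPKM and a range of 4.00 to 8.67 FPKM. Chga was next in 7 of the 8 tumours, with a median of 1.03 FPKM (0.663 to 1.85 FPKM). In young 40 Scg2 (1.17 FPKM) and Syp (0.819 FPKM) stood above Chga (0.773 FPKM). The other 7 genes had medians of 0.050 FPKM (Insm1) to 0.323 FPKM (Scg2). Among all 24028 genes of the same tumour, the median percentile of the FPKM was 71.4 for Ncam1, 52.3 for Chga, 44.5 for Scg2 and 33.3 for Insm1. The order of Scg2 (0.0748 to 1.17 FPKM), Syp (0.120 to 0.819 FPKM) and Foxa2 (0.0977 to 0.499 FPKM) changed from tumour to tumour, so these neighbours did not differ beyond their spread.

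**Figure D2:**
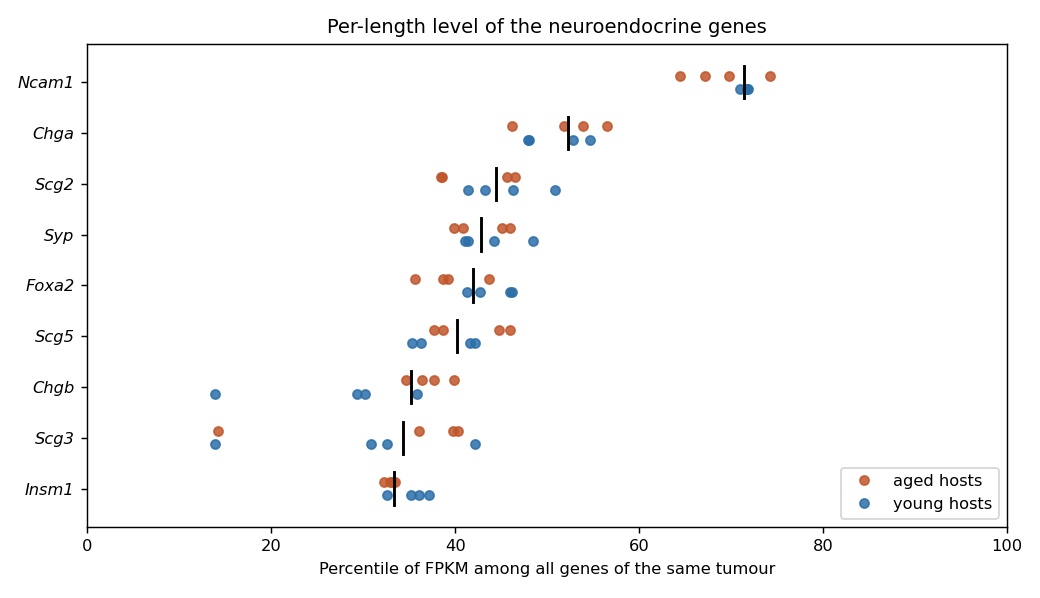
Percentile of each gene's FPKM among all 24028 genes of the same tumour (horizontal axis, 0 to 100), with 1 point per tumour, orange for aged and blue for young hosts, and a black line at the median of 8. Ncam1 has the highest median (71.4) and Insm1 the lowest (33.3), and counts of 0 give the points at 13.8 to 14.2.

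Chga (Entrez gene 12652, chr12:102554941-102565027) encodes chromogranin A, the granin most used as a neuroendocrine serum and tissue marker. It was counted at 56, 105, 55 and 105 fragments in aged 46, 47, 50 and 51, and at 36, 90, 42 and 76 fragments in young 36, 37, 40 and 43. Scaled to CPM, the aged tumours stood at 1.73, 3.44, 1.54 and 3.47 and the young at 1.25, 3.33, 1.46 and 2.13. High and low tumours occurred in both groups: aged 47, aged 51 and young 37 were above 3.3 CPM and the other 5 at or below 2.13 CPM. The mean CPM was 2.55 ± 1.05 with aged hosts and 2.04 ± 0.937 with young hosts (SD, n = 4 each). The 2 genes whose log2 CPM followed that of Chga most closely over the 8 tumours, among 14574 other tested genes, were Azin2, an antizyme inhibitor of polyamine metabolism (Pearson r = 0.92, Spearman rho = 0.90), and Chmp6, a component of the ESCRT-III membrane scission machinery (0.90 and 0.81). Azin2 ranged from 9.48 to 19.0 CPM and Chmp6 from 63.2 to 81.7 CPM. These 2 were picked as the highest of many correlations over 8 tumours, so the values only describe likeness.

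Chgb (Entrez gene 12653, chr2:132781642-132795079) encodes chromogranin B, the sister granin. Its fragments numbered 3, 11, 16 and 10 in aged 46, 47, 50 and 51, and 0, 1, 7 and 1 in young 36, 37, 40 and 43. In sum 40 fragments came from aged and 9 from young tumours, and young 40 lay above aged 46, so the groups overlapped. The means were 0.308 ± 0.152 CPM and 0.0769 ± 0.112 CPM (SD, n = 4 each), with an exact two-sided permutation p of 0.057 (70 assignments, smallest possible 0.029). In 4 of the 8 tumours Chgb was at or under 3 fragments.

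Scg2, Scg3, Scg5 and Syp shared a pattern that host age did not follow: all 4 had their 3 highest CPM values in aged 47, aged 50 and young 40. Scg2 (Entrez gene 20254, chr1:79434366-79440026) encodes secretogranin II, the precursor of secretoneurin. It stood at 0.186, 1.61, 1.88 and 0.232 CPM in aged 46, 47, 50 and 51, and at 0.485, 0.739, 2.91 and 0.868 CPM in young 36, 37, 40 and 43. The highest tumour (84 fragments) was 15.7 times the lowest (6 fragments) in CPM.

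Scg3 (Entrez gene 20255, chr9:75643366-75685959) encodes secretogranin III, which ties chromogranin A to the vesicle membrane. Its counts were 0, 15, 12 and 8 fragments in aged 46, 47, 50 and 51, and 0, 2, 18 and 1 in young 36, 37, 40 and 43. Aged 46 and young 36 thus gave no fragment, which allows up to 0.0929 and 0.104 CPM. Scg5 (Entrez gene 20394, chr2:113776313-113829091) encodes 7B2, the chaperone of the prohormone convertase PC2. Its counts were 3, 22, 29 and 3 fragments in aged 46, 47, 50 and 51, and 2, 7, 10 and 2 in young 36, 37, 40 and 43. For both genes aged 47, aged 50 and young 40 were the only tumours with 10 or more fragments.

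Syp (Entrez gene 20977, chrX:7638580-7653256) encodes synaptophysin, a membrane protein of small synaptic-type vesicles. It stood at 0.557, 2.39, 3.73 and 0.562 CPM in aged 46, 47, 50 and 51, and at 0.832, 0.924, 3.81 and 1.06 CPM in young 36, 37, 40 and 43. The 3 high tumours lay at 2.39 CPM or more and the other 5 at 1.06 CPM or less, with aged and young tumours on both sides. In GENCODE vM21 the exons of Syp overlap those of the antisense gene Gm14703 and the exons of Ncam1 those of Gm11149. The series' text names a stranded library kit, but whether the counting used strand is not stated, and fragments of these partners may not be told apart. No annotated exon of another gene overlapped the other 7 members.

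Markers of nerve tissue followed the same 3 tumours. Of all genes with at least 10 fragments over the 8 tumours, 1791 of 17297 (10.4%) had their 3 highest values in aged 47, aged 50 and young 40, against 4 of the 9 members (44.4%), 9 of 12 autonomic neuron markers and 9 of 12 Schwann cell markers. This set of tumours was noticed in the data from those 4 members, so their share was fixed by the choice. The other counts are a description. The summed level of the 12 autonomic neuron markers was 23.0 CPM in aged 47, 44.8 CPM in aged 50 and 32.8 CPM in young 40, and 2.60 to 13.2 CPM in the other 5. By host age the sum spanned 4.83 to 44.8 CPM (aged) and 2.60 to 32.8 CPM (young). Its most abundant members were Prph, the intermediate filament peripherin of peripheral neurons, and Slc6a2, the noradrenaline transporter.

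Single genes of these lists, Dbh, Th, Hand2 and Sox10, were chosen after their values were seen. Dbh, which makes noradrenaline from dopamine, had 47, 95 and 96 fragments in aged 47, aged 50 and young 40, and 0 to 4 in the other 5. Th, the tyrosine hydroxylase that starts catecholamine synthesis, had 25, 42 and 38 fragments there and 0 to 2 in the other 5. Other markers of the list were not confined to these tumours: Slc6a2 had 14 to 204 fragments and Hand2 6 to 68 in the other 5. Both were highest of these 5 in young 37, where Th, Phox2a, Chrna3 and Elavl4 were at 0. The summed Schwann cell markers stood at 69.6, 89.8 and 69.1 CPM in aged 47, aged 50 and young 40, and at 29.8 to 38.8 CPM in the other 5, with Mbp and Prx the most abundant. Sox10, the transcription factor of the Schwann cell lineage, had 29, 50 and 67 fragments against 4 to 13. The Schwann cell markers Prx, Erbb3 and Gldn did not have their 3 highest values there. Prx stood at 12.1, 15.3 and 12.4 CPM in aged 47, aged 50 and young 40, and at 9.80 to 15.2 CPM in the other 5. The part of nerve tissue in the levels of Scg2, Scg3, Scg5 and Syp was not tested.

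T cell markers moved with these tumours as well: all 6 markers found had their 3 highest values there, with a sum of 52.5, 84.2 and 59.7 CPM against 14.6 to 39.4 CPM in the other 5. Their part in the pattern was not tested. The 11 skeletal muscle markers with enough fragments, the 7 macrophage markers and the 8 seminal vesicle markers had 0 genes with this pattern. Aged 51 stood apart in skeletal muscle markers (164 CPM in sum, 10.9 to 43.1 CPM in the others), and its Scg2 and Syp were among the low values. Seminal vesicle markers took 22952 CPM of aged 50 and 38197 CPM of young 36, and at most 18.9 CPM elsewhere. Of this pair, Scg2 and Syp were high only in aged 50.

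**Figure D3:**
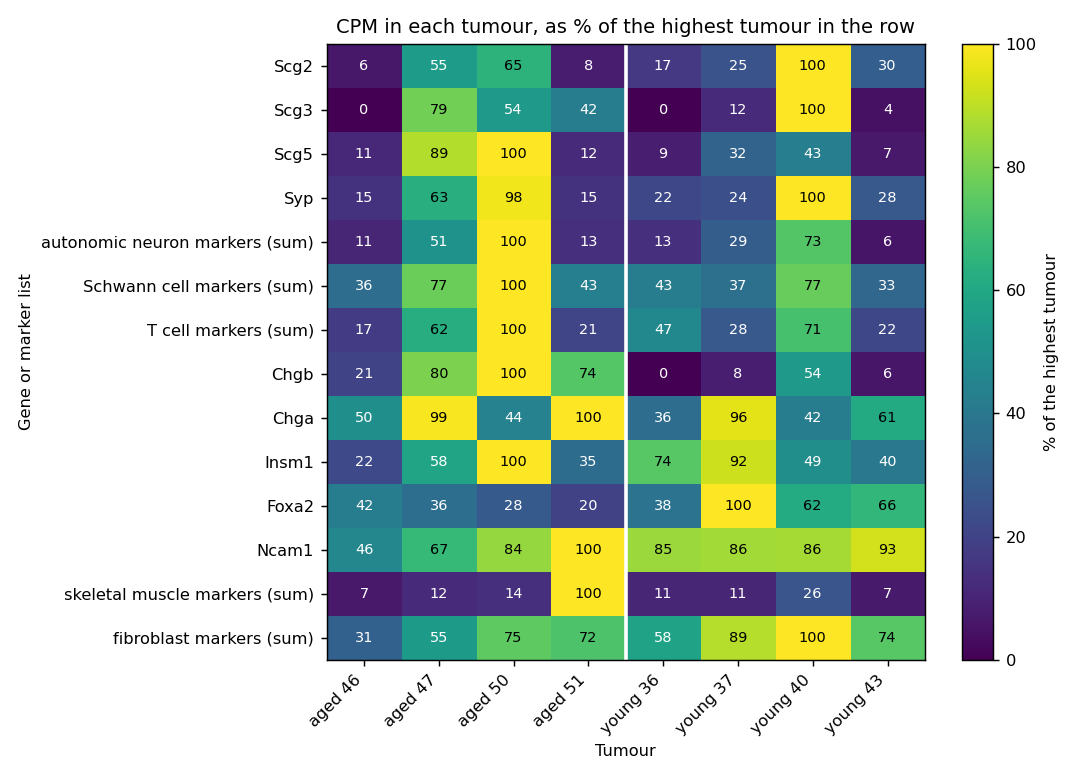
CPM of the 9 genes and summed CPM of marker lists (rows) in each tumour (columns), as a percentage of the highest tumour of the row, with aged hosts left and young hosts right of the white line. Scg2, Scg3, Scg5, Syp and the autonomic neuron, Schwann cell and T cell lists have their 3 highest values in aged 47, aged 50 and young 40, while Chga, Chgb, Insm1, Foxa2 and Ncam1 do not. For Chgb, Scg3 and Scg5 this split rests on few fragments.

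Insm1 (Entrez gene 53626, chr2:146221997-146225020) encodes a zinc finger factor that drives the differentiation of endocrine cells in many organs. Its counts were 2, 5, 10 and 3 fragments in aged 46, 47, 50 and 51, and 6, 7, 4 and 4 in young 36, 37, 40 and 43. The intervals overlapped throughout, from 0.0075 to 0.224 CPM in aged 46 to 0.135 to 0.516 CPM in aged 50 (exact Poisson 95%). Overlap of separate intervals is no test of a difference, and differences between single tumours were not tested. The mean CPM was 0.151 ± 0.0958 with aged hosts and 0.179 ± 0.0666 with young hosts (SD, n = 4 each; exact two-sided permutation p = 0.63).

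Foxa2 (Entrez gene 15376, chr2:148042877-148046969) encodes a forkhead pioneer factor that, in mouse prostate, is known from the embryonic bud and from neuroendocrine tumours. It stood at 0.495, 0.426, 0.337 and 0.232 CPM in aged 46, 47, 50 and 51, and at 0.451, 1.18, 0.728 and 0.784 CPM in young 36, 37, 40 and 43. The groups overlapped in 1 place, where young 36 lay between the aged values, and the other 3 young tumours were above all aged ones. The counts behind these values are 7 to 32 fragments. Its paralogue Foxa1, the pioneer factor of luminal prostate epithelium (chosen after its values were seen), ranged from 1.26 CPM in young 43 to 39.4 CPM in aged 50. The epithelial adhesion gene Epcam was lowest in the same tumour (0.700 CPM in young 43) and stood at 4.54 CPM in young 40 but at 52.5 CPM in young 37. Foxa2 was above all aged tumours in these 3, where Epcam was high in 1 and low in the others. The part of epithelial cells in the level of Foxa2 was not tested.

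Ncam1 (Entrez gene 17967, chr9:49502129-49799393) encodes the neural cell adhesion molecule, which neurons, Schwann cells and some mesenchymal cells also carry. Its level was 40.9, 59.4, 74.6 and 88.7 CPM in aged 46, 47, 50 and 51, and 75.5, 76.4, 76.7 and 82.6 CPM in young 36, 37, 40 and 43. The 4 young tumours lay close together, within the wider range of the aged ones. The means were 65.9 ± 20.5 CPM and 77.8 ± 3.23 CPM (SD, n = 4 each). Unlike Scg2 or Syp, Ncam1 was not highest in aged 47, aged 50 and young 40. Its highest value was in aged 51, the tumour with the highest skeletal muscle markers (164 CPM in sum). Those markers summed to 12.1 CPM in young 43, the next highest in Ncam1, and to 10.9 CPM in aged 46, the lowest. Aged 46 also had the lowest summed fibroblast (5781 CPM) and macrophage markers (1211 CPM). Their highest sums were in young 40 (fibroblast, 18527 CPM) and aged 47 (macrophage, 2613 CPM), where Ncam1 was not highest. The part of these 3 cell types in the level of Ncam1 was not tested. The 2 genes most like it over 8 tumours were Trim25, a ubiquitin ligase of antiviral signalling (Pearson r = 0.96, Spearman rho = 0.69), and Arsb, a lysosomal sulfatase (0.96 and 0.93). All 3 had their lowest value in aged 46, where Trim25 stood at 60.2 CPM and Arsb at 30.6 CPM.

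The comparison of older with young hosts asks whether the host's age goes with a neuroendocrine programme in these tumours. Of the 9 genes 5 passed the filter on low counts. With edgeR's quasi-likelihood fit, 0 of these 5 had an adjusted p (Benjamini-Hochberg) under 0.05. Of all 14575 tested genes 0 did (0%). At an unadjusted p of 0.05 edgeR gave 1 of the 5 members (Foxa2) and 728 of all genes (4.99%). DESeq2 called 43 genes and limma voom 9, with 0 members in either. None of the 9 genes had CPM values that parted the ages without overlap. Of all 14575 tested genes, which include only 5 of the 9, 3.4% did. With so small a share and so few members, this is no result about them.

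Foxa2 had the largest difference of the 5, with a log2 fold change (aged minus young) of -1.05 ± 0.41 (SE; 95% interval -1.99 to -0.12; unadjusted p = 0.031 and adjusted p = 0.92 by edgeR). Its mean CPM was 0.373 ± 0.114 with aged hosts and 0.786 ± 0.302 with young hosts (SD, n = 4 each). The unadjusted p was 0.073 by DESeq2 and 0.052 by voom, and without young 37, the highest tumour, the log2 fold change was -0.79. Ncam1 had -0.23 ± 0.21 (95% interval -0.71 to 0.25; adjusted p = 0.92 by edgeR). Voom with sample weights gave Ncam1 -0.38 with an unadjusted p of 0.0073 and an adjusted p of 0.29. Without aged 46 its difference was -0.07.

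The vesicle genes had wide intervals. Chga had a log2 fold change of 0.34 ± 0.44 (95% interval -0.66 to 1.33; adjusted p = 0.93 by edgeR). Syp had 0.12 ± 0.73 (-1.53 to 1.77; adjusted p = 0.99 by edgeR). Scg2 had -0.36 ± 0.82 (-2.22 to 1.49; adjusted p = 0.95 by edgeR). With single tumours left out, Syp ran from -0.48 (without aged 50) to 0.90 (without young 40) and Scg2 from -0.88 (without aged 50) to 0.44 (without young 40), so neither kept its direction. Without aged 47, aged 50 and young 40 the values were -0.68 for Syp and -1.66 for Scg2. Those 3 tumours were picked for their high values of these genes, 2 of them aged, so this pair of values is no test of host age. These intervals do not show that the ages are alike.

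**Figure D4:**
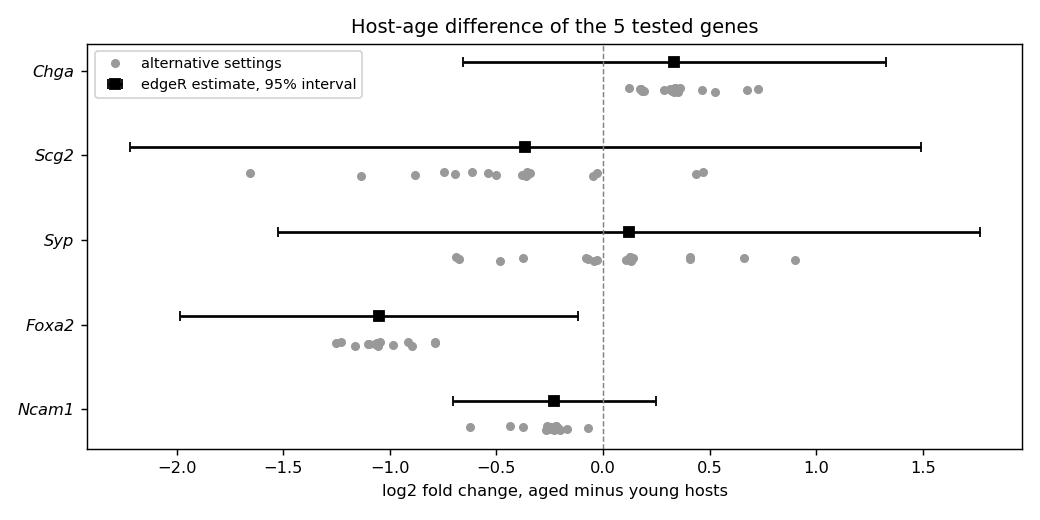
Log2 fold change between host ages (horizontal axis, aged minus young) for the 5 tested genes, as the edgeR estimate with its 95% interval (black) and under the alternative settings (grey points). Only the interval of Foxa2 (-1.99 to -0.12) leaves out 0, and the points of Syp and Scg2 lie on both sides of 0.

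For the 4 genes under the filter, edgeR without a filter gave log2 fold changes of 1.97 ± 0.92 for Chgb, 1.21 ± 0.86 for Scg5, 0.59 ± 1.21 for Scg3 and -0.25 ± 0.61 for Insm1. Their adjusted p-values were 0.86 to 0.96 by edgeR. The mean CPM of Scg5 was 0.432 ± 0.389 with aged and 0.183 ± 0.143 with young hosts, and that of Scg3 0.273 ± 0.205 and 0.181 ± 0.296 (SD, n = 4 each). The exact two-sided permutation p was 0.29 for Scg5 and 0.66 for Scg3.

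Other genes of the neuroendocrine programme were read from lists, whose members by host age are given beside all 14575 tested genes (8060 higher and 6515 lower in aged tumours, median log2 fold change 0.03). In each of the 9 lists 0 genes passed the adjusted threshold by edgeR. Genes of a list can be high in the same tumours, so their directions are not separate observations. The counts of higher and lower genes are thus no test of host age. Of the 22 transcription factor genes of neuroendocrine fate, 8 had under 3 fragments in every tumour, as did 26.0% of all genes, and 3 reached 1 CPM in every tumour. Neurod1, a factor of endocrine and neuronal differentiation, had 0 in every tumour. The limit for Neurod1 is thus 0.084 to 0.111 CPM. Of the 9 tested factors 5 were higher and 4 lower in aged tumours. Hes6, a Notch-pathway factor, was the highest per length (median 9.90 FPKM), followed by Isl1 (0.431 FPKM) and Onecut2 (0.309 FPKM). St18 had -1.07 ± 0.42 (unadjusted p = 0.032, adjusted p = 0.92 by edgeR) and Sox2 1.47 ± 0.90.

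All 11 genes of the REST complex, which silences neuronal genes outside the nervous system, were at 1 CPM or more in every tumour. Rest itself, named for the list it leads, ranged from 19.0 CPM in young 37 to 37.1 CPM in aged 51, with aged and young tumours among both its low and its high values. The highest per length were the deacetylase gene Hdac1 (57.3 FPKM), the methyltransferase gene Ehmt2 (47.5 FPKM) and the phosphatase gene Ctdsp1 (47.005 FPKM), as medians over 8 tumours. By host age 5 were higher and 6 lower (median log2 fold change -0.01), with the corepressor gene Rcor2 at -0.39 ± 0.26 and Rcor3 at 0.28 ± 0.19.

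The machinery of dense core vesicles was mixed in level, with 4 of 13 genes at 1 CPM or more in every tumour, against 50.3% of all genes. The convertase genes Pcsk1 and Pcsk2, named after their values were seen, reached at most 0.365 and 0.451 CPM. Cpe, the carboxypeptidase that trims prohormones, had a median of 72.8 FPKM, and Pam, which amidates peptides, 18.9 FPKM. Ptprn, the vesicle membrane protein IA-2, had 13.5 FPKM, above the median of every member, and its mean CPM was 41.0 ± 10.6 with aged and 74.3 ± 20.8 with young hosts (SD, n = 4 each). Its log2 fold change was -0.84 ± 0.24 (unadjusted p = 0.0066, adjusted p = 0.92 by edgeR), and aged 46 (52.0 CPM) was the highest aged and young 37 (60.2 CPM) the lowest young tumour. The ages thus parted without overlap, as they did for 3.4% of all tested genes. Ptprn was also among the genes named for a small p. Of the 9 tested genes of this list 7 were higher and 2 lower in aged tumours (median 0.53). These directions are not separate, since 6 of the 13 listed genes had their 3 highest values in aged 47, aged 50 and young 40. The convertase inhibitor gene Pcsk1n, chosen after its values were seen, had 41, 65 and 49 fragments in aged 47, aged 50 and young 40 and 0 to 7 in the other 5. The priming factor gene Cadps had 1.44 ± 0.91.

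Among 25 genes of synaptic vesicles and release, 10 were at 1 CPM or more in every tumour. Among the highest per length were Sypl, the widely expressed homologue of Syp (median 21.0 FPKM), and Vamp2, a vesicle membrane fusion protein (12.2 FPKM). Snap25, the neuronal membrane fusion protein, chosen after its values were seen, stood at 2.89, 4.26 and 2.98 CPM in aged 47, aged 50 and young 40, and at 0 to 0.596 CPM in the other 5. In all 9 of the 25 had their 3 highest values in those tumours. Of 19 tested genes 17 were higher and 2 lower in aged tumours (median log2 fold change 0.36), with Vamp2 at 0.50 ± 0.23 (unadjusted p = 0.060) and the synaptotagmin gene Syt13 at -1.48 ± 0.71 (unadjusted p = 0.067), both with an adjusted p of 0.92 by edgeR. The directions of genes that share these high tumours, of which aged 47 and aged 50 are aged, are not separate, so this count is no test of host age.

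Neuronal cytoskeleton and surface genes lay both high and near 0. Gap43, a growth cone protein, had a median of 72.6 FPKM, the beta-tubulin gene Tubb3 17.9 FPKM and the ubiquitin hydrolase gene Uchl1 6.88 FPKM, while Ina had at most 2 fragments in any tumour. Of 15 tested genes 7 were higher and 8 lower in aged tumours. Map2, a microtubule protein, had -0.39 ± 0.16 (unadjusted p = 0.033). The neurofilament gene Nefh had 5.81 ± 2.30 (unadjusted p = 0.036), and both had an adjusted p of 0.92 by edgeR. The value of Nefh rests on aged 50 with 4122 fragments, against 5 to 37 in the other 7 tumours.

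Of the peptide hormone and amine genes 6 of 26 had under 3 fragments in every tumour, Calcb and Sst among them, and 2 reached 1 CPM throughout. Those 2 were Penk, the enkephalin precursor (7.08 to 76.3 CPM, median 18.5 FPKM), and Slc18a2, the vesicular monoamine transporter, named after its values were seen. Next to Penk per length were Ddc, the aromatic amino acid decarboxylase (2.37 FPKM), and Npy, a peptide of sympathetic neurons (1.24 FPKM). Npy had 61, 112 and 120 fragments in aged 47, aged 50 and young 40 and 0 to 20 in the other 5. Of 9 tested genes 4 were higher and 5 lower in aged tumours, with the neurotensin gene Nts at -1.03 ± 0.62 and Slc18a1 at 1.45 ± 1.19. The value of Slc18a1 rests on aged 50 with 6.31 CPM, since the other aged tumours stood at 0.132 to 0.262 CPM and the young ones at 0.280 to 1.01 CPM.

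Of 8 genes that modify or partner NCAM, 6 were at 1 CPM or more in every tumour. Fgfr1, a receptor that NCAM can activate, had a median of 46.1 FPKM, the prion protein gene Prnp 35.8 FPKM and the kinase gene Fyn 12.4 FPKM. Of the polysialyltransferases that coat NCAM with sialic acid, St8sia4 ranged from 9.76 to 17.6 CPM and St8sia2, named after its values were seen, from 0 to 0.365 CPM. The log2 fold change was 0.26 ± 0.15 for Prnp and -0.23 ± 0.17 for St8sia4, and 3 of the 7 tested genes were higher and 4 lower in aged tumours.

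Of 7 paralogues and known partners of FOXA2, Hif1a, a hypoxia-stabilised factor, was highest (66.2 FPKM), followed by the collagen hydroxylase gene Plod2 (19.2 FPKM) and the ubiquitin ligase gene Siah2 (11.8 FPKM). Hif1a had a log2 fold change of -0.38 ± 0.15 (unadjusted p = 0.036) and Plod2 -0.33 ± 0.14 (unadjusted p = 0.046), each with an adjusted p of 0.92 by edgeR, and 3 of the 6 tested genes were higher and 3 lower.

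Genes of prostate epithelial identity were read in the same tumours. Host prostate cells were counted as well, so these values do not check the identity of the injected line. The summed normal prostate secretory markers ranged from 2.83 CPM in young 43 to 11204 CPM in young 37. The part of normal epithelium was not tested. The luminal keratin genes Krt8 and Krt18 had medians of 31.97 and 29.4 FPKM and Epcam 12.1 FPKM, but Epcam had only 25 fragments in young 43. Of the 10 epithelial genes 9 were higher and 1 lower in aged tumours (median log2 fold change 0.71), with 0 past the threshold by edgeR. Krt14, a basal keratin gene, had 0.76 ± 0.48.

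**Figure D5:**
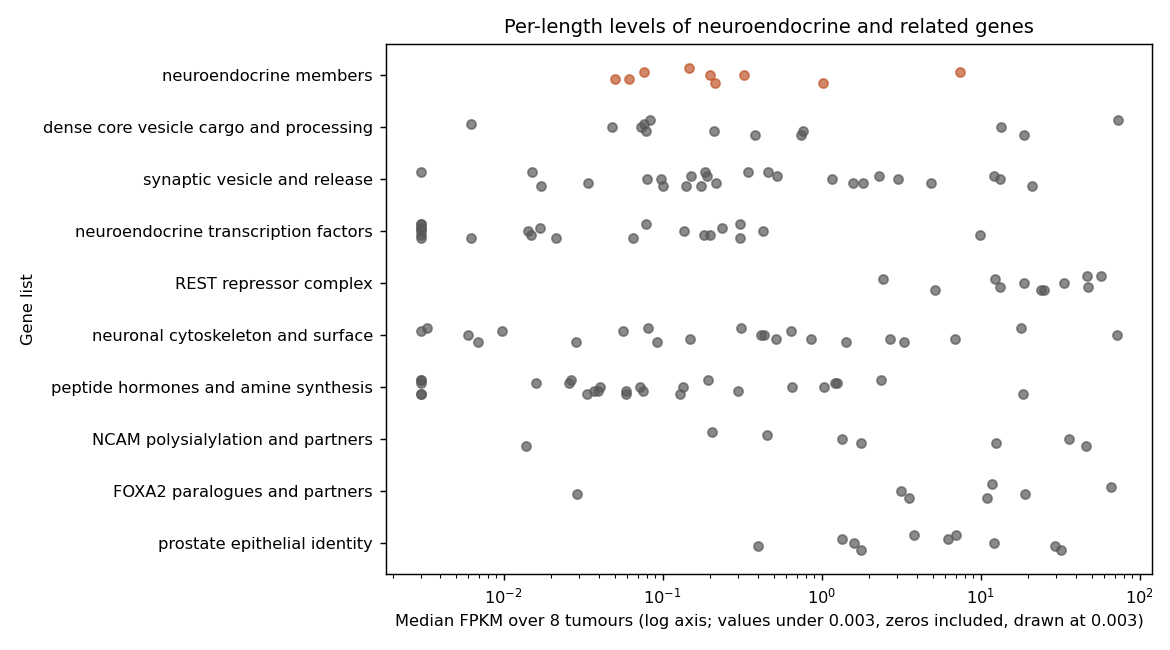
Median FPKM over 8 tumours (horizontal log axis, values under 0.003 drawn at 0.003) of the 9 members (orange) and of the genes of 9 related lists (grey), 1 point per gene. The REST complex lies above 2 FPKM throughout, while 8 of 22 neuroendocrine transcription factors had under 3 fragments in every tumour.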

How the data were processed

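TruSeq mRNA libraries were made from 1 µg RNA of each tumour and read as 50 bp paired ends, per the labels (the kit is called stranded in the series' text). TopHat2 2.0.12, Picard 2.7.1, bcl2fastq and GRCm38 (mm10) are named in the submitters' processing notes, whose roles and whose counting program and strand option the sources do not state. Per the file headers, the authors deposited fragment counts for 24028 Entrez genes, FPM values, which are CPM, since each equals the count scaled to the library total, and FPKM values, which are CPM per kilobase of transcript. Symbols turned into dates (27) were restored through RefSeq.

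The fit of host age used edgeR 4.0.16 under R 4.3.3 (filterByExpr with a minimum count of 10 and total of 15, TMM, robust quasi-likelihood fit of the counts, with no other term). Benjamini-Hochberg adjustment ran over all tested genes, with 0.05 as the threshold. Alternatives were DESeq2 1.42.0, limma 3.58.1 voom with sample weights, other scalings and filters, and tumours left out. Fits without a tumour kept the genes of the full fit. The procedure was tested on simulated counts of genes that passed the filter, which does not bear on the members under it. No library was a copy of another (lowest chi-square per degree of freedom 44.8, aged 47 with young 40). The labels give each tumour its own replicate number, taken here as its own mouse. The p-values set the difference between host groups against the spread between tumours within a group.

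The members and lists were chosen with earlier results of these data known. Named genes are the members and, from each related list, the 3 highest by median FPKM, the 2 with the smallest p and up to 2 under 3 fragments in every tumour. The 2 most abundant genes of each marker list, and the 2 tested genes most like each member at 1 CPM or more in every tumour (log2 CPM, prior count 2), were added. Some genes that this rule names are not reported here. Of 7 fixed T cell markers 6 were found, and all genes of the other lists were. Promoter windows of 7 members were matched in the RefSeq table by symbol. No batch is named in the labels or headers.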

Additional observations from a re-analysis of the deposited data

Results flagged for a closer look

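In 19 of 110 checks of 4 tumours, the highest or lowest tumour stood apart from the other 3 of its group, by a gap of more than 0.829 of the group's range. Chance gives about 1 in 20 only for independent, normally spread values. The CPM values here were not log-transformed, and some rest on few fragments, as for Chgb (0 to 7 in young tumours). Several flags also share a tumour, so the number flagged cannot be set against that rate. Young 40 was the highest young tumour for 4 members: the gap was 0.848 of the range for Chgb, 0.842 for Scg2, 0.881 for Scg3 and 0.922 for Syp. It was also the highest for Cadps (gap 0.918; 1.04 CPM, next 0.111 CPM), Tubb3 (0.838), Uchl1 (0.869; 13.7 CPM, next 3.03 CPM) and Npy (0.833).

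Aged 50 was the highest aged tumour for Nefh (gap 0.997; 116 CPM, next 0.525 CPM) and Slc18a1 (0.979; 6.31 CPM, next 0.262 CPM). It was also the highest for the seminal vesicle markers (0.999) and the normal prostate secretory markers (0.962). Aged 51 was the highest for the skeletal muscle markers (0.923), Onecut2 (0.907) and Rcor3 (0.855), and aged 46 for Ehmt2 (0.835). Among young tumours, young 36 was the highest for the seminal vesicle markers (1.0), young 37 for the normal prostate secretory markers (0.895; 11204 CPM, next 1177 CPM), and young 43 the lowest for the macrophage markers (0.895; 1833 CPM, next 2481 CPM).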

How the results depend on the processing

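The count of members called between host ages was 0 under all 18 alternatives. The count over all genes was 0 by edgeR under every scaling, filter and left-out tumour tried, but 43 by DESeq2 and 9 by limma voom. The cause of this difference between tools was not tested. Chga, Foxa2 and Ncam1 kept their direction in every alternative in which they were tested (0.12 to 0.73, -1.25 to -0.79 and -0.62 to -0.07 on the log2 scale). Scg2 turned to 0.47 with voom, and with single tumours left out it ran from -0.88 to 0.44, the latter without young 40. Syp ran from -0.48 to 0.90 with single tumours left out, and turned negative without aged 47, aged 50, young 36, young 37 or young 43. It was -0.69 without aged 50 and young 36, -0.38 without aged 51 as well, and -0.68 without aged 47, aged 50 and young 40, the last set picked once the values were known. The number of members at the expression threshold in every tumour was 2, and 3 with 0.5 CPM or with 10 fragments as the threshold, which added Syp. No paired analysis was possible because the groups share no replicate numbers. With 4 tumours a group and 41 to 78 fragments in all for the 4 members under the filter, small differences were not detectable.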

Other observations

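Outside the nervous system lists, 2 of the 10 prostate epithelial genes, Krt5 and Trp63, also had their 3 highest values in aged 47, aged 50 and young 40, against 10.4% of all genes. Krt5, a keratin of basal cells, stood at 62.9, 54.8 and 47.03 CPM there and at 3.01 to 8.72 CPM in the other 5. Trp63, which encodes the basal cell factor p63, stood at 12.7, 18.9 and 8.73 CPM and at 0.860 to 3.40 CPM in the others. The basal keratin gene Krt14 did not share this: it stood at 7.67, 5.64 and 2.53 CPM in those tumours and at 3.74 CPM in young 36. Of the 7 fibroblast markers, Dcn and Pi16 had their 3 highest values in the same 3 tumours, with Pi16 at 33.5, 74.3 and 55.5 CPM against 6.26 to 19.6 CPM. These genes were chosen after their values were seen.

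Peptides of autonomic nerves, chosen in the same way, did not all follow the same tumours. Cartpt had 27, 35 and 74 fragments in aged 47, aged 50 and young 40 and 0 to 5 in the other 5. Vip had 80, 137 and 184 fragments in those tumours but also 90 in aged 51, and 0 to 16 in the other 4.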
